A study of Mus musculus with 22 samples.

Results

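Interferon-stimulated genes (ISGs) are genes whose transcription rises when a cell senses interferon or viral nucleic acid. Here 41 of them, chosen by a list of gene symbols, were followed through all 22 libraries of a study of mouse dorsal root ganglia (DRG). All 41 symbols were matched to Ensembl identifiers among the 55487 genes of the 3 deposited count tables. Whole T10-L5 ganglia came from wild-type (WT) mice and from mice labelled Postn knock out (KO), Postn being the gene of the matricellular protein periostin, after 5 days of vehicle or IMQ (imiquimod, a small-molecule agonist of the RNA sensor TLR7). There were 3 WT vehicle, 2 WT IMQ, 3 KO vehicle and 2 KO IMQ ganglion libraries. DRG neurons of WT and KO origin were kept for 72 h in medium with or without recombinant POSTN (rPOSTN), with 3 libraries in each of the 4 culture groups (WT control, WT rPOSTN, KO control and KO rPOSTN). The sources used here give no strain, age or sex of the animals, no knockout allele, and no word on whether replicates are separate animals or pools, so each p-value measures the spread between these samples.

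Type I interferons bind the receptor pair IFNAR1 and IFNAR2, and the kinases JAK1 and TYK2 then phosphorylate STAT2, which with IRF9 is part of a complex that binds the interferon-stimulated response element (ISRE) in the promoters of ISGs. Interferon gamma acts through the receptors IFNGR1 and IFNGR2, and its signal reaches genes at gamma-activated sequences (GAS). TLR7 signals through MYD88 to IRF7, itself an ISG, so an agonist of TLR7 can raise interferon and ISGs without a virus. In DRG, neurons, satellite glia, Schwann cells and resident macrophages can all express ISGs.

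Depth was 16.7 to 24.1 M counts a library, and every member had a count in every library (the lowest was 2 counts, for Oas3). Values are CPM, counts scaled to a common library size after TMM normalization, given as mean ± SD. Postn stood at 22.8 ± 3.00 CPM in WT vehicle (n = 3) and 4.11 ± 0.854 CPM in KO vehicle ganglia (n = 3), and at 858 ± 139.8 and 205 ± 169.9 CPM in WT and KO control cultures (n = 3 each), so the KO libraries still held reads of the gene. In KO cultures replicate 3 carried most of them, at 401 CPM in the control and 449 CPM in the rPOSTN library, against 69.9 to 107.8 CPM in the other 4. Defining markers of neurons were detected in every group, and the cultures labelled DRG neuron also held markers of Schwann cells, satellite glia, fibroblasts and endothelial cells. Among vehicle ganglia, KO replicate 1 had the highest summed erythroid (413 CPM, lowest KO vehicle library 35.4 CPM) and neutrophil markers (323 CPM, lowest 27.1 CPM). Without that library 10 members were called in the KO IMQ comparison, against 11 with it.

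The promoters of the members were searched for the ISRE and GAS. Whether these sequences go with the IMQ response was not tested. RefSeq windows on GRCm38.p6, from 250 bases before to 50 bases after the start site, were found for 31 of the 41 members. The ISRE core, TTTC and TTTC with any 2 bases between them, searched on both strands, occurred in the windows of 17 of these 31 (54.8%), and in 1079 of 27025 genes with a window (3.99%). The GAS core, TTC and GAA with any 3 bases between them, which reads alike on both strands, occurred in 9 of 31 members (29.0%) and in 9.55% of all genes. The following stretches, 5′ to 3′ on the strand of the gene, belong to the 6 members with the smallest p in the IMQ comparisons among those with an ISRE core, and to Isg15, which was chosen after its values were seen. Capitals mark the bases of the ISRE core or of its reverse complement (GAAA and GAAA with 2 bases between them), and matches may overlap.
Ifit1 (chr19:34640765-34640888, plus strand): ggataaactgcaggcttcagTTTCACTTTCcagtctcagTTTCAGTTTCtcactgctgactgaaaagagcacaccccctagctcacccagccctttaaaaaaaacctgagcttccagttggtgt
Ddx58 (chr4:40239809-40239828, minus strand): ggcagTTTCGATTTCctatg
Gbp3 (chr3:142559979-142560043, plus strand): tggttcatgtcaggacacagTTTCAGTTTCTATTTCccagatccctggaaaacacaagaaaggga
Rsad2 (chr12:26456453-26456592, minus strand): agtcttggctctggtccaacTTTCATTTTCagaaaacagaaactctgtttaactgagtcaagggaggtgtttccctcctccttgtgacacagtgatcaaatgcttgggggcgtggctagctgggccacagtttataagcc
Oas1a (chr5:120907526-120907565, minus strand): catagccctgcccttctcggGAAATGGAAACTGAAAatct
Irgm1 (chr11:48871421-48871470, minus strand): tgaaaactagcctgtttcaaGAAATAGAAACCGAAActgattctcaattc
Isg15 (chr4:156200819-156200916, minus strand): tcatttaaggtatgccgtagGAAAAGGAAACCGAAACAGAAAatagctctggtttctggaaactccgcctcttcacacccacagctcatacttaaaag
In Ifit1 and Gbp3 the window holds 2 matches on the strand shown, separate in Ifit1 (from bases -104 and -85 to the start site) and overlapping in Gbp3 (from bases -45 and -39). Oas1a and Irgm1 carry 2 overlapping matches of the reverse complement, and Isg15 carries 3. None of Oas1a, Irgm1 and Isg15 was called in the main fit of either IMQ comparison. The single match of Ddx58 lies just after the start site, from base 3. The windows of Ifi44, Oasl2, Irf7 and Samhd1, which were called in at least 1 IMQ comparison below, hold no such letters. No window was matched for Rtp4, Oas2, Usp18, Dhx58, Zbp1, Mx2, Parp14, Parp9, Mx1 and Ifi27.

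In WT vehicle ganglia the members were expressed at very different levels. Per kilobase of summed exon length, Ifi27, a small interferon-induced membrane protein, was highest at 119 CPM per kb, followed by Ifitm3, which restricts viral entry in endosomes, at 73.1 CPM per kb. Stat2, the signal transducer, stood at 14.6, Bst2 (tetherin, which holds budding virions at the membrane) at 13.4 and Ifi35 at 12.9 CPM per kb. The lowest were Ifi44 at 0.332, Mx1, a dynamin-like antiviral GTPase, at 0.191 and Oas3, an oligoadenylate synthetase, at 0.0439 CPM per kb. Ifi27 was the highest member per kb in the 4 ganglion groups and Ifitm3 in the 4 culture groups. In CPM, Ifi27 spread from 144 to 232 over the 3 WT vehicle libraries, and Cmpk2, a mitochondrial nucleotide kinase, from 35 to 36.7 CPM.

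After IMQ, most of the 41 ISGs were higher in ganglia of both genotypes. The members were chosen with earlier results of these data known, so the values over all genes beside them are a description. In WT ganglia 4 of 41 members rose past an adjusted p of 0.05 (edgeR quasi-likelihood test with Benjamini-Hochberg adjustment over the 17197 genes tested), and none fell. Over all genes 1.12% were called higher. In KO ganglia 11 of 41 members rose and none fell, where 1.09% of all genes were called higher. The 4 members called in WT (Irf7, Ifit1, Oasl2 and Ifi44) were all among the 11 called in KO, 100% of the WT calls and 36.4% of the KO calls. The median log2 change of the 41 members was 0.51 in WT and 0.71 in KO, beside -0.0081 and -0.0054 over all genes. Of the members, 40 were above 0 in each genotype, and Ifi27 was below, at -0.12 ± 0.28 in WT and -0.39 ± 0.29 in KO (log2 change ± SE, neither past the test).

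**Figure D1:**
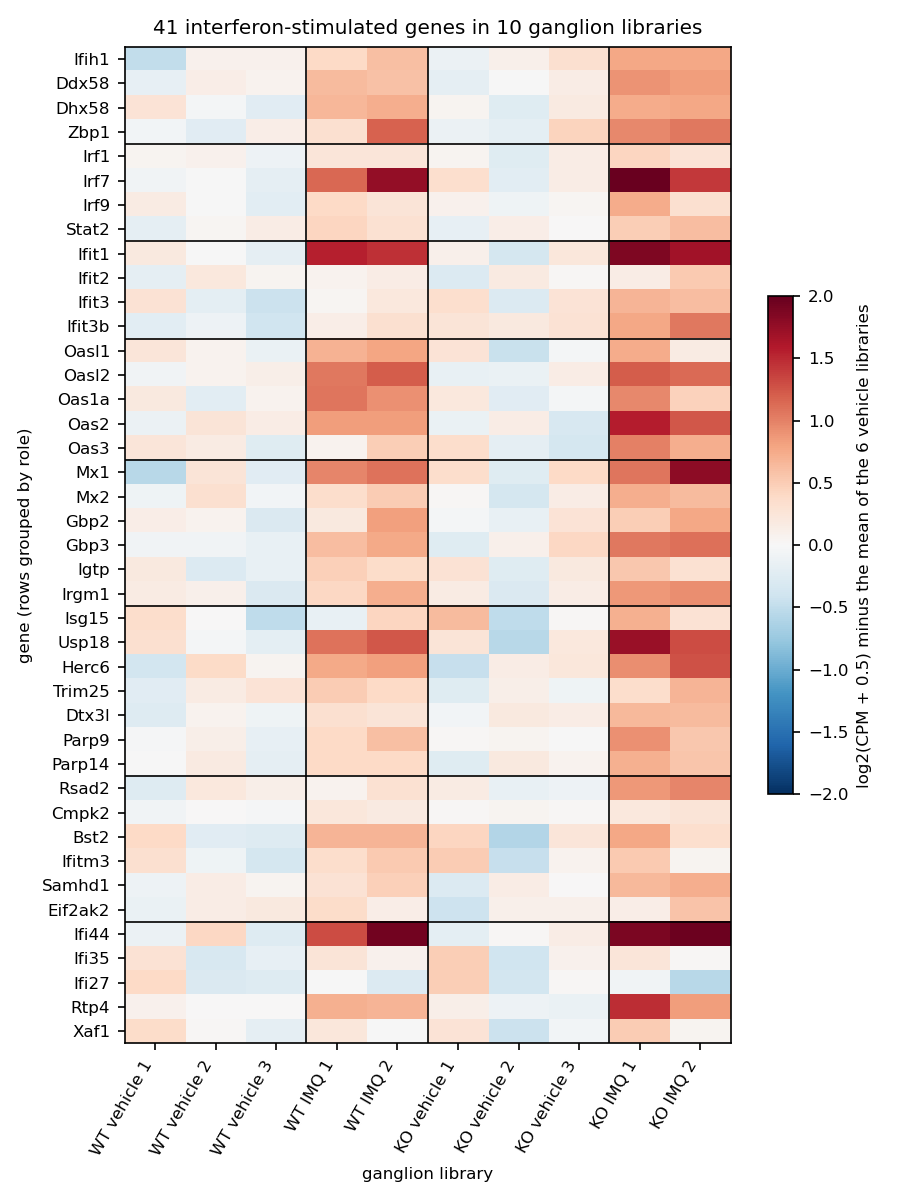
Each cell is log2(CPM + 0.5) of 1 member in 1 of the 10 ganglion libraries, minus its mean over the 6 vehicle libraries. Rows are the 41 members grouped by role and columns are libraries. The 4 IMQ columns are redder than the vehicle columns for most rows, with Irf7, Ifit1 and Ifi44 darkest, and Ifi27 is pale or blue in them.

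The libraries themselves show how far the shift reached. Both WT IMQ libraries lay above all 3 WT vehicle libraries for 32 of 41 members, beside 11.4% of all genes, and none lay below all of them (10.1% of all genes). In KO the count was 33 of 41 above, beside 12.3% of all genes, and none below (11.1%). Macrophage markers moved in the same libraries. Of 12 such genes 10 were called higher in each genotype, their summed level ran from 125 to 158 CPM in WT vehicle, 566 to 626 CPM in WT IMQ, 131 to 162 CPM in KO vehicle and 473 to 547 CPM in KO IMQ ganglia, and none was at 0. Their part in the ISG result was not tested, and in whole ganglia more cells of a type and more RNA per cell cannot be told apart. Other marker lists moved too. Summed myelinating Schwann cell markers ran from 9139 to 14261 CPM in WT vehicle and 4845 to 6912 CPM in WT IMQ ganglia, and from 5953 to 7279 and 4794 to 5279 CPM in KO, with 1 of 6 genes, Drp2, called lower in WT and none in KO. Erythroid markers were at 27.4 to 40.9 CPM in WT IMQ against 96.3 to 125 CPM in WT vehicle and at 18.3 to 24.5 against 35.4 to 413 CPM in KO, with none of 4 genes called. Adipocyte markers were at 17.7 to 27 CPM in WT IMQ against 4.60 to 8.96 CPM in WT vehicle and at 11.7 to 18.4 against 3.84 to 6.98 CPM in KO, with 1 of 4 genes (Cfd) called higher in WT. T and NK cell markers were at 3.91 to 5.21 CPM in WT IMQ against 1.85 to 2.04 CPM in WT vehicle, where Cd8a was called higher, and at 3.67 to 5.33 against 1.76 to 4.21 CPM in KO, which overlapped. B cell markers were at 37.9 to 73.3 CPM in WT IMQ against 30.9 to 33.7 CPM in WT vehicle. In KO they were at 49.9 to 73.6 against 16.6 to 38 CPM. The median log2 change of the B cell genes was -0.71 in WT (from -1.75 to 1.23) and 0.13 in KO. In WT the sum and most genes of the list thus moved in opposite directions. Ighm held most of the list's counts over all 22 libraries, 11039 against 121 to 547 for each other gene. Neutrophil markers separated in WT alone (110 to 146 against 63.9 to 95.1 CPM). Endothelial (79.6 to 81.3 against 52 to 70.2 CPM) and fibroblast markers (1448 to 1649 against 1156 to 1348 CPM) separated in KO alone. No B cell, neutrophil, endothelial or fibroblast marker was called. The part of these lists in the ISG result was not tested either. None of 10 neuron markers was called in either genotype, and of 4 plasmacytoid dendritic cell markers 2 passed the filter and none was called.

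The IFIT and OAS families are direct antiviral effectors. IFIT proteins bind viral RNA that lacks the host cap modification. Ifit1 read 25.4, 21.9 and 19.4 CPM in WT vehicle and 65.4 and 61.3 CPM in WT IMQ ganglia. The knockout values were 23.7, 17.2 and 25.9 CPM in KO vehicle and 82 and 71.5 CPM in KO IMQ ganglia. Every IMQ library was above every vehicle library of its genotype, and Ifit1 rose 2.85-fold in WT (log2 change 1.51 ± 0.17, adjusted p = 0.0022) and 3.45-fold in KO (1.79 ± 0.17, adjusted p = 0.0012). The other 3 members of the family were not called. Ifit3b, whose sequence is nearly identical to that of Ifit3 so that reads of the pair may be split, was at 0.50 ± 0.16 in WT and 0.71 ± 0.15 in KO. Ifit3 was at 0.21 ± 0.23 and 0.53 ± 0.23, and Ifit2, the neighbour of Ifit3 in the genome, at 0.07 ± 0.17 and 0.36 ± 0.17.

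The active enzymes of the OAS family make oligoadenylate, which activates RNase L. Oasl2, an OAS-like protein, read 50.1, 55.2 and 57 CPM in WT vehicle and 109.7 and 122 CPM in WT IMQ ganglia, and 47.2, 47.9 and 58.5 CPM in KO vehicle and 123 and 116 CPM in KO IMQ ganglia. IMQ libraries lay at about the same height in the genotypes, and Oasl2 rose 2.14-fold in WT (1.10 ± 0.12, adjusted p = 0.0016) and 2.33-fold in KO (1.22 ± 0.12, adjusted p = 0.0012). Oas2 read 1.54, 2.15 and 1.95 CPM in WT vehicle and 3.45 and 3.45 CPM in WT IMQ ganglia. KO ganglia gave 1.52, 1.94 and 1.26 CPM in KO vehicle and 6.03 and 4.73 CPM in KO IMQ ganglia. Both KO IMQ libraries were above every other ganglion library, and Oas2 rose 3.39-fold in KO (1.76 ± 0.23, adjusted p = 0.0056), while in WT its change of 0.87 ± 0.23 had an adjusted p of 0.17. Oas1a, which has close copies that may share its reads, was at 1.08 ± 0.22 in WT (adjusted p = 0.06) and 0.84 ± 0.23 in KO (adjusted p = 0.22). Oasl1 was at 0.80 ± 0.29 and 0.64 ± 0.30, and the sparse Oas3 at 0.51 ± 0.63 and 1.85 ± 0.58.

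Among transcription factors, Irf7, the factor through which TLR7 drives interferon genes, read 4.96, 5.19 and 4.55 CPM in WT vehicle and 12.3 and 18.9 CPM in WT IMQ ganglia. The KO values were 6.74, 4.47 and 5.84 CPM in KO vehicle and 22 and 14.7 CPM in KO IMQ ganglia. All 4 IMQ libraries were above all 6 vehicle libraries, although the 2 libraries of each IMQ group were well apart. Irf7 rose 3.18-fold in WT (1.67 ± 0.25, adjusted p = 0.0097) and 3.25-fold in KO (1.70 ± 0.24, adjusted p = 0.0093). Leaving out WT IMQ replicate 2 or WT vehicle replicate 3 ended the WT calls of Irf7 (adjusted p = 0.12 and 0.062) and of Ifi44 (adjusted p = 0.14 and 0.058). Stat2 (0.36 ± 0.13 in WT and 0.56 ± 0.13 in KO), Irf9 (0.34 ± 0.16 and 0.53 ± 0.15) and Irf1 (0.23 ± 0.14 and 0.36 ± 0.14), the factors that carry the interferon signal to the promoter, were not called. Exons of Irf7 overlap those of Phrf1 on the opposite strand and exons of Irf9 those of Rnf31, so their counts may hold reads of the other gene.

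The cytosolic RNA sensors RIG-I (Ddx58), MDA5 (Ifih1) and LGP2 (Dhx58) and the Z-nucleic acid sensor Zbp1 were all above 0. Ddx58 read 25.8, 31.8 and 30.4 CPM in WT vehicle and 44.9 and 43.5 CPM in WT IMQ ganglia, and 25.4, 28.6 and 31.9 CPM in KO vehicle and 54.1 and 52 CPM in KO IMQ ganglia. The genotypes' IMQ libraries did not overlap with their vehicle libraries, and Ddx58 rose 1.85-fold in KO (0.89 ± 0.13, adjusted p = 0.0093). Its WT change of 0.59 ± 0.13 had an adjusted p of 0.071. Ifih1 was at 0.61 ± 0.20 in WT and 0.68 ± 0.20 in KO, Dhx58 at 0.75 ± 0.20 and 0.82 ± 0.20, and Zbp1 at 1.07 ± 0.36 and 1.15 ± 0.35, none past the test.

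Of 6 interferon-induced GTPases, Gbp3, a guanylate-binding protein that acts on intracellular pathogens, was called in KO. It read 9.81, 9.90 and 9.35 CPM in WT vehicle and 16.1 and 18 CPM in WT IMQ ganglia. KO libraries read 8.74, 11.2 and 14.1 CPM in KO vehicle and 22.2 and 22.9 CPM in KO IMQ ganglia. It rose 1.99-fold in KO (0.99 ± 0.17, adjusted p = 0.027), and the WT change of 0.82 ± 0.18 had an adjusted p of 0.07. Mx1 had a large change with a large error, 1.61 ± 0.43 in WT and 1.65 ± 0.40 in KO (adjusted p = 0.17 and 0.13), at 0.721 ± 0.349 CPM in WT vehicle (n = 3). The autophagy-linked GTPase Irgm1 was at 0.60 ± 0.19 and 0.90 ± 0.19, Gbp2 at 0.58 ± 0.22 and 0.62 ± 0.22, Mx2 at 0.40 ± 0.21 and 0.79 ± 0.21, and Igtp at 0.50 ± 0.19 and 0.34 ± 0.19.

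ISG15 is a ubiquitin-like modifier, Herc6 a ligase that attaches it in mice, and Usp18 the protease that removes it and also restrains IFNAR2. Usp18 read 5.08, 3.82 and 3.40 CPM in WT vehicle and 8.98 and 10.01 CPM in WT IMQ ganglia. Its KO values were 4.85, 2.53 and 4.63 CPM in KO vehicle and 14.3 and 10.5 CPM in KO IMQ ganglia. Usp18 rose 3.12-fold in KO (1.64 ± 0.28, adjusted p = 0.022), and in WT its change was 1.21 ± 0.28 (adjusted p = 0.093), with no overlap between IMQ and vehicle libraries in either genotype. Isg15 itself read 5.85, 4.50 and 3.00 CPM in WT vehicle and 3.96 and 6.20 CPM in WT IMQ ganglia, and 7.22, 2.98 and 4.53 CPM in KO vehicle and 7.59 and 5.56 CPM in KO IMQ ganglia. The vehicle and IMQ libraries overlapped in both genotypes, and the changes were 0.19 ± 0.39 and 0.43 ± 0.38. Herc6 was at 0.78 ± 0.27 in WT and 1.18 ± 0.27 in KO. The ubiquitin ligases Trim25 (0.37 ± 0.17 and 0.59 ± 0.17) and Dtx3l (0.39 ± 0.13 and 0.56 ± 0.13) and the ADP-ribosyltransferase family genes Parp9 (0.55 ± 0.15 and 0.74 ± 0.15) and Parp14 (0.41 ± 0.16 and 0.63 ± 0.16) were not called. Dtx3l and Parp9 lie next to each other on opposite strands with overlapping exons, so their counts may share reads.

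Among other restriction factors, Rsad2 (viperin), which makes a chain-terminating nucleotide, read 5.20, 7.44 and 6.95 CPM in WT vehicle and 6.65 and 7.90 CPM in WT IMQ ganglia. KO ganglia held 7.16, 5.69 and 5.89 CPM in KO vehicle and 11.9 and 12.9 CPM in KO IMQ ganglia. The WT groups overlapped, whereas both KO IMQ libraries were above every other ganglion library. Rsad2 rose 1.99-fold in KO (0.99 ± 0.18, adjusted p = 0.034), beside 0.15 ± 0.19 in WT. Samhd1, a dNTP hydrolase, read 39.1, 46.5 and 43.4 CPM in WT vehicle and 51.3 and 58.7 CPM in WT IMQ ganglia, and 34.6, 46.7 and 42.3 CPM in KO vehicle and 66.2 and 69.7 CPM in KO IMQ ganglia. It rose 1.65-fold in KO (0.72 ± 0.14, adjusted p = 0.045) and was at 0.35 ± 0.14 in WT. Cmpk2, the neighbour of Rsad2 on the opposite strand, had tight libraries and a small change, 0.23 ± 0.09 and 0.21 ± 0.09 (adjusted p = 0.54 and 0.57). The kinase PKR (Eif2ak2) was at 0.18 ± 0.20 and 0.42 ± 0.20, Bst2 at 0.70 ± 0.30 and 0.50 ± 0.31, and Ifitm3 at 0.46 ± 0.28 and 0.22 ± 0.28.

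The remaining induced proteins held the largest fold of all members. Ifi44, a cytoplasmic protein induced by type I interferon, read 1.77, 2.78 and 1.55 CPM in WT vehicle and 5.58 and 8.84 CPM in WT IMQ ganglia. The KO readings were 1.64, 1.99 and 2.21 CPM in KO vehicle and 8.58 and 9.05 CPM in KO IMQ ganglia. All IMQ libraries were above all vehicle libraries, and Ifi44 rose 3.53-fold in WT (1.82 ± 0.27, adjusted p = 0.011) and 4.50-fold in KO (2.17 ± 0.27, adjusted p = 0.0047). Rtp4, a receptor chaperone, read 7.62, 7.23 and 7.25 CPM in WT vehicle and 12.1 and 11.8 CPM in WT IMQ ganglia, and 7.83, 6.64 and 6.53 CPM in KO vehicle and 20.9 and 13.2 CPM in KO IMQ ganglia. It rose 2.44-fold in KO (1.29 ± 0.18, adjusted p = 0.0093), with 1 KO IMQ library far above the other, and was at 0.69 ± 0.19 in WT (adjusted p = 0.18). Xaf1, a pro-apoptotic protein, was at 0.03 ± 0.24 and 0.36 ± 0.23 and Ifi35 at 0.22 ± 0.26 and 0.03 ± 0.26, with overlapping libraries in both genotypes. Across the 41 members the IMQ change was larger where the vehicle level was low: the correlation with log2 vehicle CPM was r = -0.53 in WT and -0.68 in KO (Spearman rho -0.58 and -0.65). The vehicle libraries enter both axes, and members are not independent replicates.

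**Figure D2:**
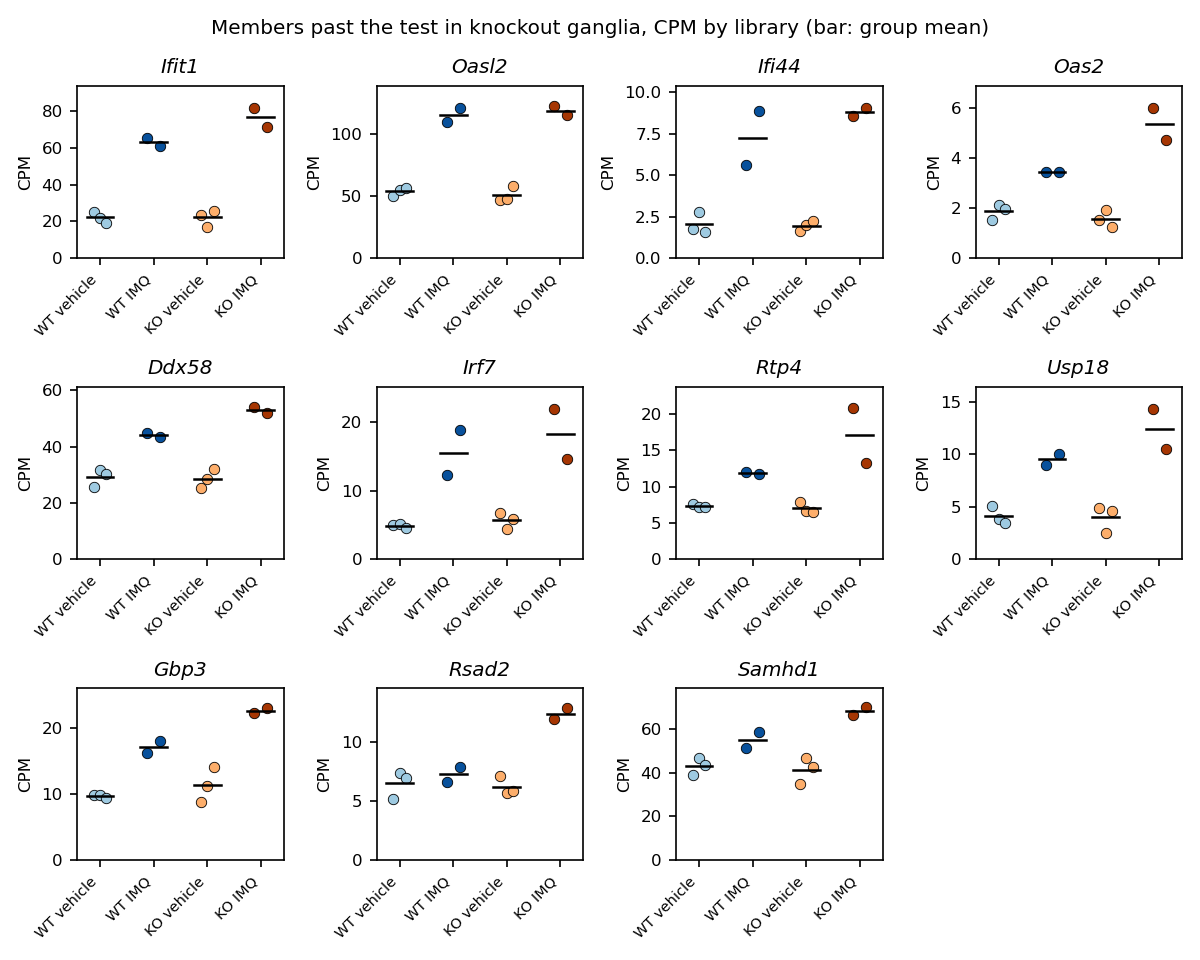
The 11 members called in KO ganglia, 1 panel each, with CPM on the vertical axis from 0. Points are libraries (WT vehicle 3, WT IMQ 2, KO vehicle 3, KO IMQ 2) and bars are group means. In the Rsad2 panel WT IMQ overlaps WT vehicle while KO IMQ stands above.

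The number of calls changed with single libraries, IMQ and vehicle alike. In KO, 3 members were called without KO IMQ replicate 1, and 6 without KO IMQ replicate 2 or without KO vehicle replicate 3. In WT, 2 members were called without WT IMQ replicate 2 or without WT vehicle replicate 3. Ifit1 and Oasl2 were called in both genotypes under all 11 alternatives run for each IMQ comparison, and so was Ifi44 in KO. The other 8 KO calls, Samhd1 and Rsad2 most often, were lost under between 2 and 5 of the alternatives.

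Whether the IMQ response of the ISGs differed by genotype was tested as an interaction. None of the 41 members and none of the 17197 genes (0.0%) was called by edgeR. At an unadjusted p under 0.05 there were 2 members, Rsad2 (0.84 ± 0.26 larger in KO) and Oas2 (0.89 ± 0.33), and 364 genes (2.12%). DESeq2 called 5 genes and no member. The change was larger in KO for 33 of 41 members, with a median difference of 0.20 beside -0.0044 over all genes, of which 49.3% were above 0. Between genotypes, which share no library here, the changes of the 41 members correlated at r = 0.82 (rho = 0.78). Same-numbered WT and KO vehicle libraries deviated together across genes (0.872, 0.83 and 0.161), so the errors of the WT and KO changes may not be independent. The larger number of calls in KO is not shown by this test to be a difference between genotypes.

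**Figure D3:**
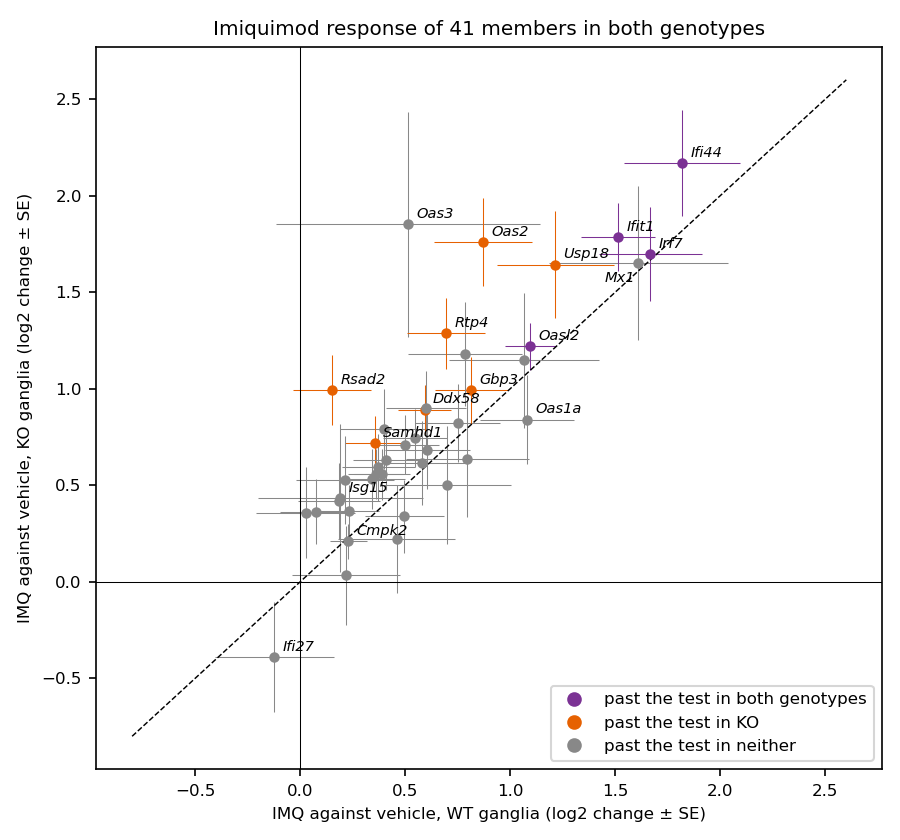
Each point is 1 of the 41 members, with its IMQ change in WT ganglia on the horizontal and in KO ganglia on the vertical axis (log2 change, bars are ± SE). The dashed line marks equal change, and 33 of 41 points lie above it, with Rsad2, Oas2 and Oas3 farthest.

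Knockout and WT ganglia were also compared directly. In vehicle ganglia no member was called (0.0116% of all genes were, 2 genes, both lower), 1 member (Ifit3b) and 3.08% of all genes were under an unadjusted p of 0.05, and DESeq2 called no member. The median of the members was 0.0029, beside 0.017 over all genes. The 3 KO libraries lay above the 3 WT libraries for 2 of 41 members, Ifit3b and Cmpk2, where 3.02% of all genes do so. Ifit3b read 5.32, 5.76 and 4.60 CPM in WT and 7.52, 7.18 and 7.74 CPM in KO vehicle ganglia, a change of 0.52 ± 0.14 (adjusted p = 1). None lay below, against 3.89% of all genes.

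In IMQ ganglia no member was called either (0.00581% of all genes, 1 gene, lower). At an unadjusted p under 0.05 there were 5 members (Ifit3b, Rsad2, Oas2, Rtp4 and Dtx3l), all higher in KO, beside 1.85% of all genes, and DESeq2 called none. For 20 of 41 members both KO libraries were above both WT libraries, where 16.2% of all genes were, and for none were both below (17.0%). The median was 0.24, beside -0.0022 over all genes. Ifit3b read 6.90 and 7.90 CPM in WT IMQ and 11 and 13.5 CPM in KO IMQ ganglia. Its KO libraries thus lay above its WT libraries under vehicle and under IMQ, without a call in either. In the cultures described below, which were set side by side without a test, Ifit3b was lower in KO. Summed macrophage markers were at 566 to 626 CPM in WT IMQ and 473 to 547 CPM in KO IMQ. None of the 12 macrophage genes was called between genotypes there, and their part in these values was not tested.

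Upstream genes of the pathway were looked at from a list. Interferon ligands were at the edge of detection. Ifnb1 had 1 count over all 10 ganglion libraries, in WT IMQ, and 11 counts over the 12 culture libraries, and Ifna1, Ifna4, Ifna5, Ifne and Ifnl3 had none in any library. A count of 0 in a library allows up to 3 counts. None of 6 receptor genes was called in either genotype, with Ifnar1 at -0.14 ± 0.14 in WT and -0.15 ± 0.14 in KO and Ifnar2 at 0.21 ± 0.17 and 0.03 ± 0.17.

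Of 11 genes of endosomal and cytosolic nucleic acid sensing, 2 were called higher in WT and 3 in KO, and none lower, where 1.12% and 1.09% of all genes were called higher. Tlr7 itself read 3.19, 3.30 and 2.2 CPM in WT vehicle and 5.68 and 4.80 CPM in WT IMQ ganglia. Its KO readings were 1.82, 1.90 and 2.32 CPM in KO vehicle and 5.16 and 5.62 CPM in KO IMQ ganglia. It rose 2.67-fold in KO (1.42 ± 0.22, adjusted p = 0.013), and its WT change was 0.86 ± 0.21 (adjusted p = 0.12). Unc93b1, the chaperone that brings TLR7 to endosomes, rose in WT (1.78 ± 0.14, adjusted p = 2.4e-04) and in KO (1.52 ± 0.14, adjusted p = 0.001). Tlr8 was called in KO (3.25 ± 0.60, adjusted p = 0.034) and Sting1, the adaptor of cytosolic DNA sensing, in WT (1.46 ± 0.20, adjusted p = 0.0055), beside 2.31 ± 0.56 and 0.46 ± 0.20 in the other genotype. Irf8, a factor of myeloid cells, rose in both (1.70 ± 0.21 and 1.23 ± 0.21), as did Ptpn6, a phosphatase of blood cells (1.92 ± 0.18 and 1.62 ± 0.18). Macrophages express these genes too. The macrophage markers given above were higher in the same libraries, and their part in these changes was not tested.

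A further list of 39 interferon-induced genes outside the 41 members, of which 38 were tested, held 6 called higher in WT (1.12% of all genes) and 11 in KO (1.09%), and none lower. Ifi27l2a read 19.6, 11.1 and 11.1 CPM in WT vehicle and 57.4 and 63.8 CPM in WT IMQ ganglia, and 20.1, 10.3 and 13.8 CPM in KO vehicle and 42.4 and 43.2 CPM in KO IMQ ganglia. It rose 4.36-fold in WT (2.13 ± 0.29, adjusted p = 0.0061) and 2.92-fold in KO (1.54 ± 0.29, adjusted p = 0.039). Epsti1 (1.64 ± 0.23 and 1.55 ± 0.23), Sp110, a nuclear body protein (1.11 ± 0.19 and 1.06 ± 0.19), Phf11d (0.96 ± 0.18 and 1.04 ± 0.18) and Iigp1, an immunity-related GTPase (1.31 ± 0.25 and 1.60 ± 0.25), were called in both genotypes. The median of the list was 0.54 in WT and 0.63 in KO. This list too was chosen with earlier results of these data known.

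Members' levels in single vehicle libraries went with summed exon length in 5 of the 6. These 5 do not count separately, since deviations from a shared group mean depend on each other. In WT vehicle replicate 1 the members' deviation from their group mean correlated with log2 exon length at r = -0.71, and in KO vehicle replicate 1 also at -0.71, so that short members such as Ifitm3, Isg15, Bst2, Ifi27 and Ifi35 were highest there. KO vehicle replicate 2 went the other way at 0.74, as did WT vehicle replicates 2 and 3 at 0.58 and 0.49, while KO vehicle replicate 3 stood at 0.017 (41 members each, of 1 library and with the group mean in common). The KO IMQ libraries were at -0.42 and 0.42 and the WT IMQ libraries at 0.017 and -0.017, mirror values since each group has 2 libraries. With an offset for the length trend of each library, 10 members were called in WT and 21 in KO, and the median in KO was 0.82. The members called with that offset and not without it were Bst2, Ddx58, Ifitm3, Igtp, Oas1a and Usp18 in WT, and Bst2, Dhx58, Dtx3l, Herc6, Ifit3, Ifitm3, Igtp, Oas1a, Parp9 and Stat2 in KO.

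**Figure D4:**
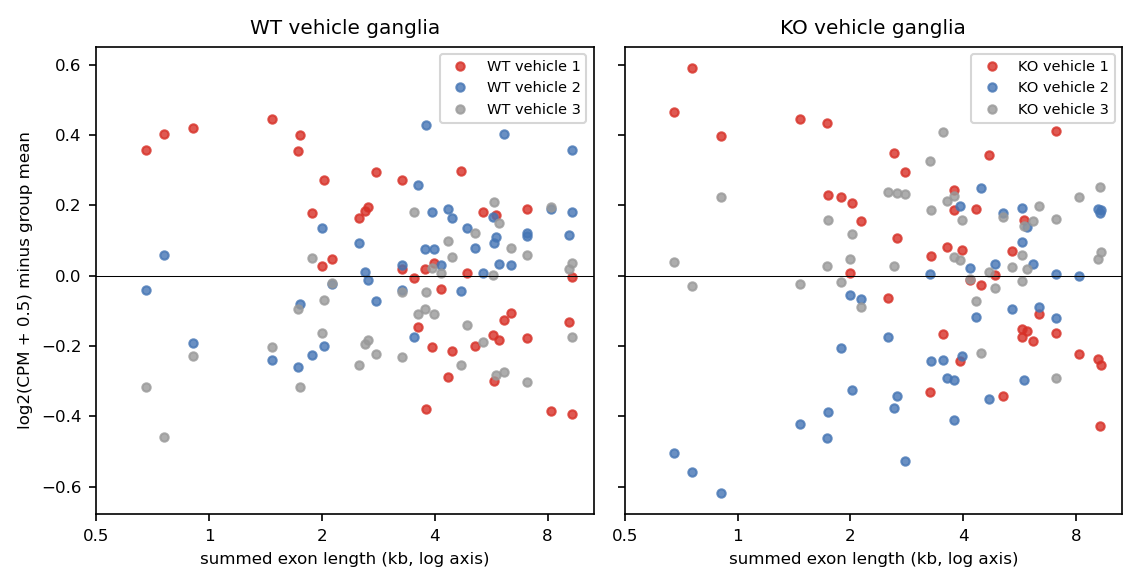
Each point is 1 member in 1 vehicle library: summed exon length in kb on a log axis against log2(CPM + 0.5) minus the group mean, with WT on the left and KO on the right. Points of replicate 1 fall from left to right in both panels, and those of KO replicate 2 climb.

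Recombinant POSTN for 72 h left the members without a call in either genotype. In WT cultures 0 of 41 members and 0 of 16639 genes (0.0%) were called by edgeR, 1 member (Ifitm3) and 661 genes (3.97%) were under an unadjusted p of 0.05, and DESeq2 called none. In KO cultures 0 of 41 members and 0 of 16756 genes (0.0%) were called, 0 members and 155 genes (0.925%) were under that p, and DESeq2 called none. The median log2 change was -0.05 in WT and -0.03 in KO, beside -0.00080 and 0.0079 over all genes. Ifitm3 read 109.9, 108 and 95.5 CPM in WT control and 99.1, 96.1 and 88.3 CPM in WT rPOSTN cultures, a change of -0.15 ± 0.06. The groups overlapped, but in each same-numbered pair, which deviated together in these cultures, the rPOSTN library was the lower one, and with the replicate block the change was -0.15 (adjusted p = 0.31). All 3 pairs were lower with rPOSTN for 10 of 41 members in WT (13.1% of all genes) and higher for 5 (14.8%), and in KO they were lower for 4 (10.6%) and higher for 3 (12.8%). Of the members called after IMQ in both genotypes, Ifit1 was at -0.06 ± 0.21 in WT and 0.12 ± 0.24 in KO cultures, Oasl2 at -0.01 ± 0.14 and 0.03 ± 0.16, Irf7 at -0.22 ± 0.13 and -0.12 ± 0.30, and Ifi44 at -0.10 ± 0.20 and 0.61 ± 0.38. Oas3 was the 1 member whose WT rPOSTN libraries all lay above the control libraries (5.01% of all genes), none lay below (4.64%), and in KO no member was clear of overlap in either direction (2.58% of all genes higher and 2.8% lower). The interaction of genotype and rPOSTN called 0 members and 0 of 17519 genes (0.0%), with 342 genes (1.95%) under an unadjusted p of 0.05 and none called by DESeq2.

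The culture libraries differed by replicate number. In WT, replicate 3 was below its group mean for most members: 5 of 41 were above it in the control and 6 of 41 in the rPOSTN library. In KO, replicate 2 was low (7 and 5 of 41 above the group mean) and replicate 3 high (31 and 36 of 41). The same replicate numbers were low or high with and without rPOSTN. Among KO cultures, replicate 3 was also the library pair with the highest Postn, given above, and the highest Col3a1, a fibroblast collagen. Col3a1 was at 265 CPM in the control and 368 CPM in the rPOSTN library, against 86.4 to 147 CPM in KO replicates 1 and 2. It is the gene of the fibroblast list singled out here, and the other genes of that list are not given by library. Of the macrophage markers, C1qa, C1qb, C1qc and Ctss were lowest in KO replicate 2 and highest in KO replicate 3, with and without rPOSTN. For C1qb these were 3.43 and 8.73 CPM in the control and 1.19 and 7.44 CPM in the rPOSTN libraries. Cd68 ran the other way, at 59 and 45.3 CPM and at 70.1 and 38.3 CPM. The other macrophage markers held neither order in both sets. What goes with the replicate pattern was not tested.

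Levels in WT and KO cultures are set side by side without a test, because genotype and count table coincide. In control cultures 37 of 41 members were lower in KO, with a median log2 ratio of -0.33 beside 0.016 over all genes. For 19 of 41 members all 3 KO libraries lay below all 3 WT libraries, where 14.8% of all genes do so, and for none above (14.1%). Without KO control replicate 3, an alternative added after seeing the data, the median was -0.39, and the counts were 29 below (22% of all genes) and 1 above (21.6%). With the rPOSTN libraries added, 9 of 41 stayed clear of overlap and lower in KO (4.57% of all genes), and none was clear and higher (3.57%). The 9 were Ifih1, Stat2, Ifit1, Ifit3, Ifit3b, Oasl2, Trim25, Parp14 and Eif2ak2. Ifit1 read 26, 25.3 and 20.4 CPM in WT control and 12.4, 9.82 and 13.1 CPM in KO control cultures. Ifit3b read 23.9, 19.4 and 18 and 12.3, 8.92 and 11.2 CPM there, and Oasl2 read 68.4, 66.6 and 55 and 38.4, 36.8 and 39.3 CPM. Ifit1 was 2.03-fold lower in KO by group means. Mx1 ran the other way, at 2.88 ± 0.596 CPM in WT and 3.81 ± 1.28 CPM in KO (n = 3 each), with overlapping libraries. Marker sums differed between the same libraries. Endothelial markers were at 203 to 228 CPM in WT control and 162 to 166 CPM in KO control cultures, without overlap. B cell markers were at 8.85 to 17.2 and 23 to 36 CPM, also without overlap. Summed satellite glia markers overlapped, at 1273 to 1556 and 1077 to 1392 CPM. Kcnj10, a satellite glia channel and the gene of that list singled out here, did not, at 169 to 189 and 101 to 115 CPM. Summed macrophage markers overlapped, at 86.2 to 98.9 and 78.8 to 88.4 CPM, with Cd68 the largest part of the sum. Cd68 was higher in KO without overlap (39.9 to 44.5 and 45.3 to 59 CPM). Adgre1 (4.58 to 6.76 and 2.32 to 3.81 CPM) and Ctss (8.26 to 9.07 and 4.43 to 6.80 CPM) were lower in KO without overlap. The other genes of the macrophage list overlapped. The part of these cells in the gap was not tested. Whether genotype, preparation or the separate table goes with this gap cannot be told apart.

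**Figure D5:**
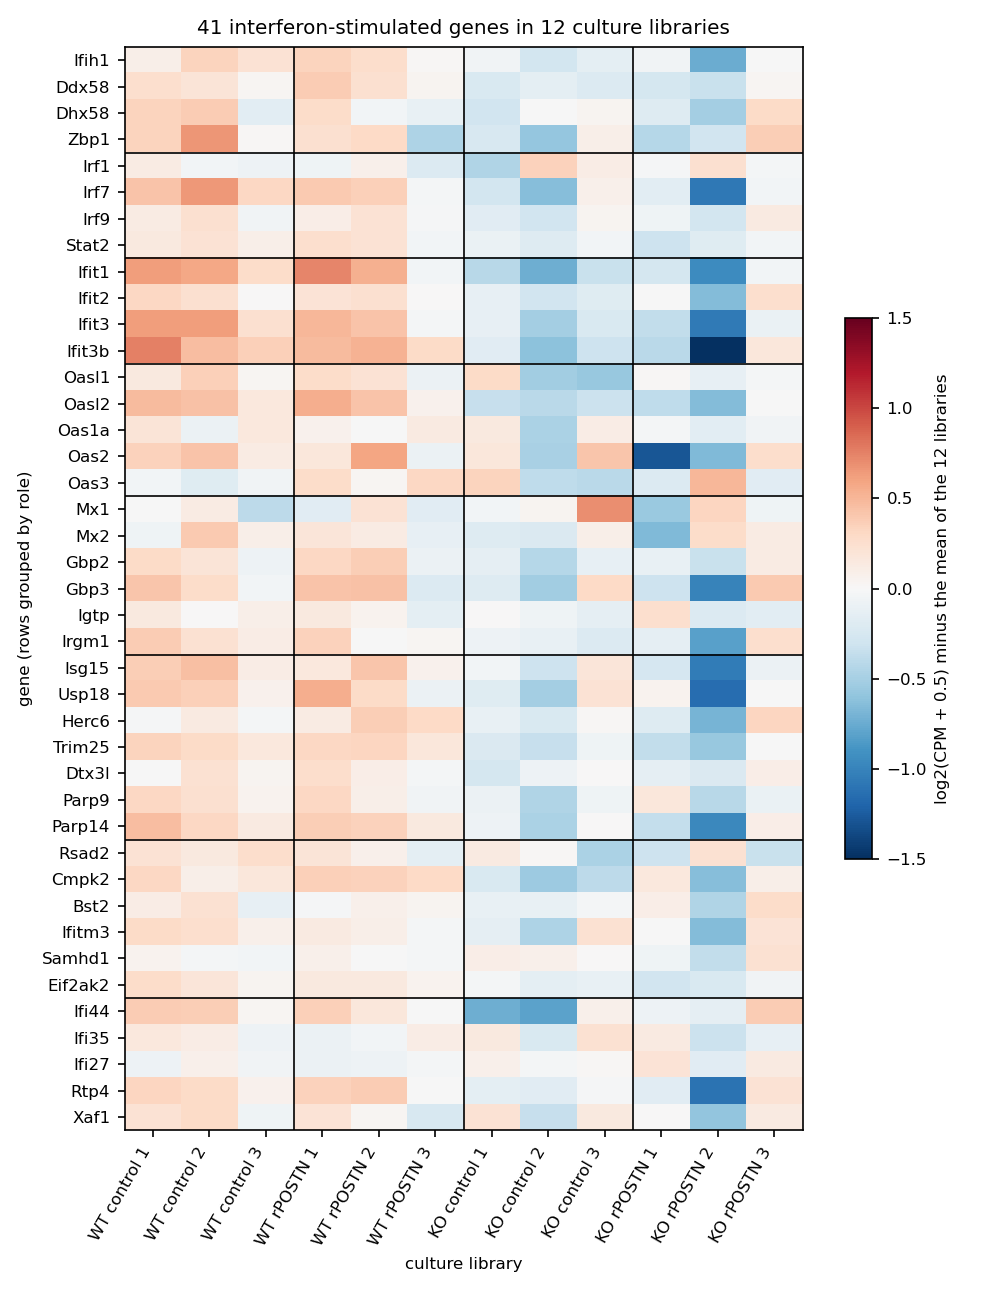
Each cell is log2(CPM + 0.5) of 1 member in 1 of the 12 culture libraries, minus its mean over those 12. WT replicates 1 and 2 are mostly red (column medians 0.22 to 0.28) and KO replicates 1 and 2 mostly blue (-0.45 to -0.12), while the replicate 3 columns of both genotypes have medians near 0, from -0.030 to 0.083.

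Between control cultures and vehicle ganglia, tissue and table coincide too, so these levels are a description. The median log2 ratio of the 41 members was 1.01 in WT (0.13 over all genes) and 0.67 in KO (0.15 over all genes). All WT culture libraries were above all WT ganglion libraries for 29 of 41 members (43.4% of all genes) and below them for 3 (31.4%). In KO the counts were 24 above (40.7%) and 5 below (28.7%). Parp14 read 15.5, 17.7 and 13.7 CPM in WT vehicle ganglia and 88, 79.5 and 69.9 CPM in WT control cultures. Isg15, which did not separate after IMQ, read 5.85, 4.50 and 3.00 CPM in those ganglia and 24.9, 26.4 and 20.7 CPM in those cultures. Cmpk2 had the lowest ratio of the 41, with 35, 36.7 and 36.1 CPM in ganglia and 8.31, 7.04 and 7.50 CPM in cultures, while its neighbour Rsad2 read 5.20, 7.44 and 6.95 and 19.7, 18.7 and 20.4 CPM. Stat2 and Ifi35 were the other members whose WT culture libraries all lay below the WT ganglion libraries. By group means 7 of 41 members were lower in WT cultures, with Oas2, Samhd1, Ifi27 and Ifit2 besides these 3. Ifit1, called after IMQ in both genotypes, was 22.2 ± 2.99 CPM in WT ganglia and 23.9 ± 3.06 CPM in WT cultures (n = 3 each). Summed neuron markers were 12207 to 14006 CPM in WT vehicle ganglia and 5899 to 6112 CPM in WT control cultures.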

How the data were processed

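RNA of 10 ganglion and 12 culture libraries was poly-A selected, made strand-specific with dUTP and sequenced as 150 bp pairs, per the labels' protocols. The authors deposited raw read counts per Ensembl gene in 3 tables (ganglia, WT cultures, KO cultures) with no normalization. Per the submitters' processing notes the build was GRCm39 and the tools included Bowtie2 2.2.3, HISAT2 2.1.0 and TopHat2, without their roles. How reads were counted, with which strand setting and annotation, is not given in the sources used here. If strand was not used, 10 members whose exons overlap a gene on the opposite strand (GENCODE M21) may hold its reads, and 5 overlap a gene on the same strand. GENCODE M21, on GRCm38, gave symbols for 55141 of 55487 genes and exon lengths.

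Counts were tested with edgeR 4.0.16 (R 4.3.3): filterByExpr, TMM, robust quasi-likelihood fit and two-sided test, Benjamini-Hochberg adjusted over every gene tested in a comparison, called at an adjusted p below 0.05. All 41 members passed the filter on low counts in all 8 comparisons. The 4 ganglion groups shared 1 fit, WT and KO cultures had a fit each, and the culture interaction used all 12. SE is the log2 change over the square root of F. CPM used 1 TMM scaling for ganglia and 1 for cultures. The members and lists were chosen with earlier results of these data known. Named genes are the called members, called genes of the pathway and further lists (at most 6 per comparison), and Tlr7, Ifnb1, Ifnar1, Ifnar2 and Postn, with the other members by their change. Of the further list, the genes called in both genotypes are named, and those called in 1 genotype are not. Some other genes, such as Kcnj10 and Col3a1, are named outside this rule. A further gene of the rule is not reported here. Promoter windows came from RefSeq. The scripts were tested on simulated data. Alternatives were DESeq2 1.42.0, DESeq2 size factors, no filter, only the groups compared, a length offset, a replicate block and leaving out each library. Same-numbered samples counted as paired where each of 3 pairs correlated above 0.1 in their deviations across genes with a mean log2 CPM above 3. That held for control with rPOSTN in WT (0.457, 0.446 and 0.722) and KO cultures (0.384, 0.709 and 0.635) and for WT with KO vehicle ganglia (0.872, 0.83 and 0.161), and IMQ groups had 2 numbers each.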

Additional observations from a re-analysis of the deposited data

How the results depend on the processing

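With DESeq2, 9 members were called after IMQ in WT and 19 in KO; with the length offset 10 and 21 (KO median 0.82); with no filter WT had 8; with only the groups compared KO had 3. With the replicate block WT had 8 members. The block changed no member call in the paired comparisons, and WT rPOSTN gained 8 genes with it. Leaving out 1 library gave 2 to 4 members in WT and 3 to 10 in KO, with medians of 0.43 to 0.60 and 0.69 to 0.75. Where an IMQ group then held 1 library, that library was assumed to vary like the others. In the other 6 comparisons no member was called under any alternative run. Over all genes, DESeq2 called 369 in WT, 296 in KO, 5 for the interaction, 31 for KO in vehicle and 2 for KO in IMQ ganglia. Only the groups compared gave 58 in KO IMQ, 1 for KO in vehicle and 5 for KO in IMQ ganglia. With no filter these were 2 for the interaction, 22 for KO in vehicle, 2 for KO in IMQ ganglia and 2 for WT rPOSTN, and with the length offset 1 for the interaction and 4 for KO in vehicle ganglia. Leaving out 1 library gave 82 to 160 genes in WT IMQ, 56 to 165 in KO IMQ, 0 to 1 for the interaction, 0 to 2 for KO in vehicle and 0 to 1 for KO in IMQ ganglia. The ratio of WT culture to ganglion had a median of 0.86 with 1 TMM over all 22 libraries. A few uncalled members crossed 0 when 1 library was left out: in KO, Ifi35 ran from -0.17 to 0.28 and Ifitm3 from -0.026 to 0.49, and in WT, Ifi27 ran from -0.26 to 0.14, Ifit2 from -0.016 to 0.17, Isg15 from -0.16 to 0.48, Oas3 from -0.0048 to 0.92 and Xaf1 from -0.10 to 0.20. Xaf1 in WT was at -0.026 with the replicate block. The cause was not tested. With 2 IMQ libraries a genotype, a change that misses the threshold is not shown to be absent.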
